A study of Mus musculus with 98 samples.

Results

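The genes described here encode the nuclear-made parts of respiratory chain complexes I to V, measured by RNA-seq in mouse CD4 T cells. They were chosen by name alone, from symbols beginning with Nduf, Uqcr, Atp5 or Cox4 to Cox8 and from Sdha, Sdhb, Sdhc and Sdhd. Of 24312 gene symbols in the 7 count tables, 92 matched. A gene was kept in a set where it had at least 10 counts in 50% or more of the libraries, which left 85 genes in at least 1 set and 84 in all 7. The 85 include 35 structural subunits of complex I, 4 of II, 8 of III, 14 of IV and 15 of V. The others are 7 complex I assembly factors (Ndufaf genes) and 2 genes named after ATP synthase, Atp5s and Atp5sl. These 2 were placed in no complex and were not counted as assembly factors. Ndufa4 carries a complex I name and was placed with complex IV. Cox4i2, Cox6a2, Cox7b2, Cox8b, Cox8c, Ndufa4l2 and Ndufs5 were never kept, and Cox7a1 was not kept in set 6, the regulatory T cells. Cox4i2 entered the test in the vector sets but is not counted. Ndufs5, a complex I subunit, had at most 2 counts in any library.

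The respiratory chain sits in the inner mitochondrial membrane. Complexes I and II pass electrons from NADH and succinate to ubiquinone, complex III hands them to cytochrome c, complex IV passes them to oxygen, and complex V makes ATP from the proton gradient that complexes I, III and IV build. Activated T cells are known to enlarge their mitochondria as they grow, and interleukin-2 (IL-2) acts on them in part through STAT5, a transcription factor made from the Stat5a and Stat5b genes. The subunits made inside mitochondria are not analysed here.

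All mice were C57BL/6. Except in set 6, naive CD4+ CD44- CD25- cells were sorted from pooled spleens and peripheral lymph nodes and activated on plate-bound antibody to CD3 with soluble antibody to CD28. In set 1, wild-type cells received human IL-2 for 18 h after an overnight rest, in a 4-day culture, or were only rested, in a 3-day culture, with 3 libraries each, so the day of culture differs with the treatment. Sets 2, 3 and 5 are 4-day cultures given IL-2 for 18 h after transduction with retroviral vectors. In their STAT5-deficient cells, a floxed Stat5a/b locus had been cut by Cd4-Cre, a recombinase active in T cells, and wild-type cells carried the same vectors. The vectors were STAT5 with MYC or control in set 2, STAT5, AKT or CD25 with control in set 3, and pairs of STAT5, MYC, AKT and control vectors in set 5. Set 4 holds STAT5-deficient and wild-type cells cultured for 3 days as Th0 (no added cytokine), Th1 (IL-12 with antibody to IL-4), Th2 (IL-4 with antibody to IFN-gamma), Th17 (TGF-beta and IL-6 with both antibodies) or iTreg (TGF-beta with both antibodies). Set 6 holds wild-type FoxP3+ regulatory T cells (Treg cells) cultured overnight with IL-2 or taken ex vivo. Set 7 holds Stat5a-/- Stat5b+/-, Stat5a+/- Stat5b-/- and wild-type effector cells after 4 days, with IL-2. Every group outside set 1 had 2 libraries, and the labels do not say whether replicates came from separate animals, so p-values measure the spread between these libraries, which may be technical.

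The 88 libraries in 43 groups held 3.9 to 49.1 M (mega) counts, with a median of 16.9 M. Levels are given as CPM, read counts scaled to library size, after TMM normalisation, not corrected for gene length, so they are compared between samples and not between genes. In control vectors Stat5a stood at 2.16 and 2.69, 2.59 and 1.78, and 17.1 and 4.49 CPM in the deficient libraries of sets 2, 3 and 5, against 74.3 to 107.4 CPM in wild type. Deficient cells carrying the STAT5 vector held 642.2 to 1087 CPM. Vector results are given with and without 5 doubted libraries. They are 1 wild-type library with the STAT5 vector in set 3 (3.9 M counts), 1 deficient control in set 2 and 1 deficient library with STAT5 and AKT in set 5 (ribosomal Rn45s at 9948 and 250000 CPM), and 1 deficient control and 1 deficient MYC library in set 5 (Stat5a at 17.1 and 16.2 CPM). T cell markers were present in all sets. In set 4, 1 wild-type Th2 library stood apart from its replicate, and both second Th1 libraries carry a Th2 cell type label but a Th1 title and treatment.

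IL-2 raised most of the respiratory chain in rested wild-type cells. Of 85 genes, 74 rose and 4 fell in edgeR's quasi-likelihood test with Benjamini-Hochberg adjustment over all genes, with a gene called at an adjusted p below 0.05. Of all 12262 genes tested, 40.8% were called higher and 40.4% lower. The median log2 fold change of the 85 genes was 0.74, against -0.01 over all genes. Their summed level was 12394 to 13108 CPM with IL-2 and 7801 to 8250 CPM at rest, a mean of 157.8% of the rested level. By complex, 33 of 35 complex I subunits rose with a median log2 fold change of 0.76, 4 of 4 in complex II (0.40), 7 of 8 in complex III (0.89), 11 of 14 in complex IV (0.58) and 15 of 15 in complex V (0.81). Among the Ndufaf assembly factors 4 of 7 rose, with a median of 0.55.

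In complex I the subunit with the largest increase was Ndufa12, an accessory subunit of the peripheral arm. It stood at 81.3, 83.0 and 94.7 CPM with IL-2, against 28.0, 27.6 and 30.4 CPM at rest, a log2 fold change of 1.6 ± 0.07 (SE, adjusted p = 1.56e-14). The groups did not overlap. Ndufb6 and Ndufb4, accessory subunits of the membrane arm, rose by log2 fold changes of 1.26 ± 0.07 and 1.23 ± 0.09. Of the catalytic core, Ndufs7 rose by 1.04 ± 0.07 on the log2 scale, Ndufv1 by 0.74 ± 0.06, Ndufs1 by 0.64 ± 0.06 and Ndufs3 and Ndufv2 by 0.49 ± 0.06 each. Ndufa6, an accessory subunit that binds the acyl carrier protein, was not called (-0.12 ± 0.07, adjusted p = 0.11).

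The assembly factor Ndufaf4 had the largest increase of all 85 genes. It stood at 25.2, 21.6 and 25.6 CPM with IL-2, against 7.80, 6.73 and 7.22 CPM at rest (log2 fold change 1.74 ± 0.11, adjusted p = 4.24e-12), with no overlap between the groups. Ndufaf2, which acts on a late intermediate of complex I, rose by 1.01 ± 0.13 on the log2 scale, Ndufaf6 by 0.78 ± 0.15 and Ndufaf3 by 0.55 ± 0.11. Ndufaf7, an arginine methyltransferase, averaged 23.5 ± 1.5 CPM with IL-2 and 23.6 ± 2.3 CPM at rest (SD, n = 3 each). Ndufaf1 and Ndufaf5 were not called, with log2 fold changes of 0.18 ± 0.15 and 0.23 ± 0.11.

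Complex II, succinate dehydrogenase, is the smallest complex and also works in the citric acid cycle. Its iron-sulfur subunit Sdhb stood at 151.2, 156.5 and 165.9 CPM with IL-2, against 86.5, 83.3 and 82.7 CPM at rest (log2 fold change 0.91 ± 0.06, adjusted p = 5.66e-12). The groups did not overlap. The membrane anchors Sdhd and Sdhc rose by 0.45 ± 0.06 and 0.36 ± 0.06 on the log2 scale, and the flavoprotein Sdha by 0.19 ± 0.05 (adjusted p = 0.00139). The 4 subunits of this complex thus changed by unequal amounts, and the difference between them was not tested.

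In complex III, Uqcr11 and Uqcrq rose most. Uqcr11 stood at 70.1, 62.9 and 69.9 CPM with IL-2, against 20.8, 22.3 and 22.1 CPM at rest (log2 fold change 1.64 ± 0.07, adjusted p = 1.09e-14). Uqcrq stood at 132.6, 136.3 and 138.8 CPM with IL-2, against 45.1, 45 and 46.1 CPM at rest (1.58 ± 0.06, adjusted p = 6.58e-16). Neither gene's groups overlapped. The Rieske iron-sulfur protein Uqcrfs1 rose by 0.94 ± 0.06 on the log2 scale, and the core proteins Uqcrc1 and Uqcrc2 by 0.64 ± 0.06 and 0.33 ± 0.05. Uqcrh, the hinge protein that contacts cytochrome c1, was not called (0.09 ± 0.06, adjusted p = 0.144). Cyc1, cytochrome c1 itself, is outside the naming rule and rose by 1.35 ± 0.06.

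In complex IV 2 of 14 genes fell and 1 was not called. Cox5a stood at 141.3, 144.6 and 149.3 CPM with IL-2, against 58.8, 53.6 and 60.7 CPM at rest (log2 fold change 1.33 ± 0.06, adjusted p = 2.43e-14), with no overlap. Ndufa4 and Cox6a1 rose by 1.29 ± 0.07 and 1.19 ± 0.06 on the log2 scale, while Cox4i1, the subunit that can bind ATP, rose by 0.24 ± 0.06. Cox7a2l stood at 285.8, 297.9 and 291.1 CPM with IL-2, against 327.4, 322.7 and 343.2 CPM at rest, and fell by 0.18 on the log2 scale (SE 0.05, adjusted p = 0.00158). This call was lost without a filter on low counts (-0.11, adjusted p = 0.0824). Its relative Cox7a2, a subunit proper, rose by 0.91 ± 0.06. Cox6b2, an isoform known from testis, fell at a low level, averaging 0.921 ± 0.38 CPM with IL-2 and 2.83 ± 0.64 CPM at rest (-1.58 ± 0.30, adjusted p = 6.36e-05), where its partner Cox6b1 rose by 0.62 ± 0.06. Cox7a1, the isoform of heart and muscle, was at 1.08 ± 0.21 CPM with IL-2 and 1.52 ± 0.22 CPM at rest (SD, n = 3 each) and was not called (-0.46 ± 0.29). Of the other isoforms of muscle and other tissues that the rule matched, Cox4i2, Cox6a2, Cox7b2, Cox8b and Cox8c, none was kept.

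In complex V the catalytic beta subunit Atp5b stood at 1361, 1332 and 1459 CPM with IL-2, against 642.9, 619.5 and 656.6 CPM at rest (log2 fold change 1.11 ± 0.06, adjusted p = 1.32e-13). The groups did not overlap. Its partner in the catalytic ring, Atp5a1, rose by 0.38 ± 0.06. Atp5g1, Atp5g2 and Atp5g3 encode the same mature c subunit of the rotating ring with different import sequences. Atp5g1 stood at 110.1, 102.9 and 115.7 CPM with IL-2, against 43.7, 45.7 and 46.9 CPM at rest (1.27 ± 0.06, adjusted p = 6.52e-14). Atp5g3 rose by 1.07 ± 0.05, and Atp5g2 by 0.24 ± 0.05 (adjusted p = 0.000358). Both genes named after ATP synthase fell: Atp5sl averaged 15.6 ± 1.6 CPM with IL-2 and 41.1 ± 1.6 CPM at rest (-1.38 ± 0.08, adjusted p = 2.71e-12), and Atp5s fell by 0.65 on the log2 scale (SE 0.20, adjusted p = 0.00586).

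Other measures moved with IL-2 as well. Summed over its 9 genes, the myeloid and antigen-presenting list was at 32.5 to 35.3 CPM with IL-2 (8 of 9 detected, Lyz2 at 0) and 89.3 to 106.5 CPM at rest (8 of 9, Itgax at 0). Of this list, Lyz2 and Csf1r were at most 0.0606 CPM in any of the 6 libraries. Others of the list were higher: Cd74 ranged from 1.97 to 69.5 CPM, Itgam from 0.809 to 16.1 CPM and Cd68 from 1.05 to 9.5 CPM. The CD8 list was at 9.8 to 12.7 CPM with IL-2 and 19.8 to 22.7 CPM at rest, and the NK cell list at 0.1 CPM with IL-2 and 1.8 to 3.1 CPM at rest. The B cell list was at 3.0 to 3.2 CPM with IL-2 and 15.3 to 15.8 CPM at rest, with 3 of 5 genes detected and Pax5 at 0 in both. The T cell list, with 6 of 6 detected, was at 2561 to 2657 CPM with IL-2 and 2925 to 2955 CPM at rest, and Rn45s at 1150 to 1389 CPM with IL-2 and 2458 to 3498 CPM at rest. The part of these differences in the results was not tested. In bulk samples such as these, fewer cells of a type and less RNA per cell cannot be told apart.

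Genes around the chain were called in both directions, where 40.8% of all genes tested were called higher and 40.4% lower. Of 36 further assembly factors, 22 rose with IL-2 and 8 fell. Uqcc2, needed for complex III assembly, rose by 1.46 ± 0.08 on the log2 scale and Lrpprc, which stabilises mitochondrial messenger RNAs, by 1.23 ± 0.06, whereas the complex IV factor Surf1 fell by 0.54 (SE 0.07). Of 19 other chain and membrane genes, 16 rose and 1 fell, led by prohibitin Phb (1.81 ± 0.06) and cytochrome c, Cycs (1.72 ± 0.07). Of 23 regulators of mitochondrial genes, 14 rose and 5 fell. The coactivators Pprc1 and Ppargc1b rose by 2.08 ± 0.11 and 1.99 ± 0.22 and Myc by 1.02 ± 0.06, while Polg2, the accessory subunit of the mitochondrial DNA polymerase, fell by 1.03 (SE 0.09) and Foxo1 by 0.65 (SE 0.07).

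The promoters of the leading gene of each complex, with Atp5b and Atp5g1 for complex V and the assembly factor Ndufaf4, are printed because these genes changed together. Each sequence is the 120 bases just upstream of the RefSeq gene start in GRCm38.p6, read 5′ to 3′ on the gene's strand, with matches to the searched motifs in capitals. Coordinates are chr10:94198915-94199034 (+) for Ndufa12, chr4:24897963-24898082 (+) for Ndufaf4, chr4:140961151-140961270 (+) for Sdhb, chr10:80406822-80406941 (-) for Uqcr11, chr9:57521112-57521231 (+) for Cox5a, chr10:128083187-128083306 (+) for Atp5b and chr11:96075632-96075751 (-) for Atp5g1.
Ndufa12: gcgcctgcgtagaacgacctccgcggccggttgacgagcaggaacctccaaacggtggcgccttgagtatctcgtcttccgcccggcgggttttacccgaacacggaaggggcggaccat
Ndufaf4: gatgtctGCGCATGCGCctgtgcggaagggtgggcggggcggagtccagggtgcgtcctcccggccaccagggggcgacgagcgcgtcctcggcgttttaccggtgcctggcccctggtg
Sdhb: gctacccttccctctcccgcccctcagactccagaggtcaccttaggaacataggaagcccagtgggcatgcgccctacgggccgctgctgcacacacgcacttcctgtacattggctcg
Uqcr11: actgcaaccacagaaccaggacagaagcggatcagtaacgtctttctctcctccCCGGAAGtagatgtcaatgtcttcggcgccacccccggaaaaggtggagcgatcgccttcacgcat
Cox5a: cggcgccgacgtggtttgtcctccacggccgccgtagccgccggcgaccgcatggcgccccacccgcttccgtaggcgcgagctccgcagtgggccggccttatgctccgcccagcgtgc
Atp5b: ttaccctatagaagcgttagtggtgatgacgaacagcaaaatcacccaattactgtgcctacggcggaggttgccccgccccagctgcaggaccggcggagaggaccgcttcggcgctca
Atp5g1: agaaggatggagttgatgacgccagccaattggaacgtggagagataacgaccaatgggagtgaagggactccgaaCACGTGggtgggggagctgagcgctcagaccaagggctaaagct

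In these windows the Ndufaf4 sequence holds the NRF1 core (GCGC, any base, TGCGC), the Uqcr11 sequence the ETS core CCGGAAG and the Atp5g1 sequence the E-box CACGTG, while the other sequences hold none of the motifs searched. The longer windows of the RefSeq table, 300 bases from 250 before to 50 after the start, were matched to 73 of the 85 genes, 70 by symbol and 3 by synonym, and set beside those of 27025 genes, both strands searched. The NRF1 core was in 18 of the 73 windows (24.7%), against 5.19% of all genes, the ETS core in 17 (23.3%), against 9.93%, and the YY1 core AAGATGGC in 11 (15.1%), against 3.19%. The E-box was in 7 (9.6%), against 8.09%, and the paired STAT half-site TTCNNNGAA in 5 (6.8%), against 9.55%. No motif searched contains another, though an ETS core can share bases with a pair of STAT half-sites, and windows with more than 1 motif were counted under each. The median log2 fold change with IL-2 was 0.77 in genes with the NRF1 core and 0.76 in those without, and 0.74 in genes with the STAT half-sites and 0.76 in those without. For the STAT5 vector in deficient cells, described further on, the medians were 0.73 with the STAT half-sites and 0.52 without, 0.71 with the E-box and 0.54 without, 0.64 with the NRF1 core and 0.51 without, and 0.43 with the ETS core and 0.58 without. None of these differences was tested.

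**Figure D1:**
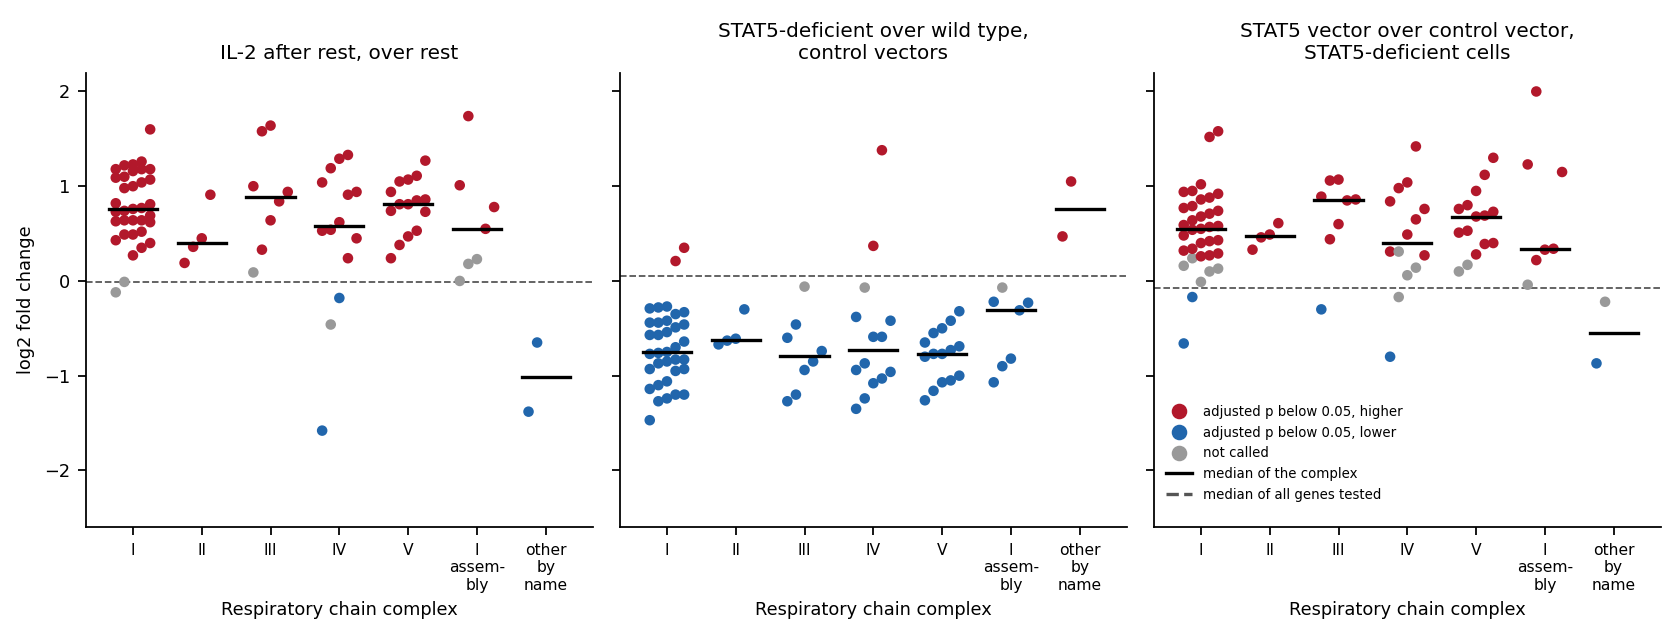
Log2 fold change of each gene, grouped by complex, for IL-2 against rest, STAT5 loss with control vectors and the STAT5 vector in deficient cells. Red, blue and grey points were called higher, lower and not called, black bars are class medians and dashed lines the median of all genes tested, with 74, 6 and 67 of 85 genes called higher in the 3 comparisons.

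Loss of STAT5 lowered the respiratory chain in cells given IL-2. In control vectors over sets 2, 3 and 5, 76 of 85 genes fell and 6 rose in deficient cells (edgeR, 6 libraries each), where 30.8% of the 16359 genes tested were called lower and 28.8% higher. The median log2 fold change was -0.70, against 0.05 over all genes. By complex, 33 of 35 genes fell in complex I (median -0.75), 4 of 4 in complex II (-0.62), 7 of 8 in complex III (-0.80), 11 of 14 in complex IV (-0.73) and 15 of 15 in complex V (-0.77), with 6 of 7 assembly factors (-0.31). Summed levels were 6743 to 10369 CPM in deficient cells and 11534 to 15161 CPM in wild type, a mean of 64.7%. The summed level of complex V in deficient cells was 58.5% of wild type and that of complex II 72.6%. Within sets the counts of lower and higher genes were 55 and 3 in set 2, 65 and 4 in set 3, and 72 and 3 in set 5, with medians of -0.53, -0.71 and -0.86, and without the doubted libraries 74 fell and 4 rose. For counts within a set, here and below, the share of all genes called in that set was not counted.

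The genes shown next had the largest fall of their complex, or of the assembly factors, in this same comparison. Ndufa12, Sdhb, Cox5a and Ndufaf4 had also led with IL-2, where Uqcr11 and Atp5g1 led complexes III and V. Ndufa12 had 19.4, 25.5 and 34.3 CPM as its lowest, median and highest values in deficient cells, against 62.1, 68.9 and 88.7 CPM in wild type (log2 fold change -1.47 ± 0.10, adjusted p = 5.4e-16). Cox5a had 42.0, 51.3 and 62.6 CPM in deficient cells, against 106, 131 and 160 CPM in wild type (-1.35 ± 0.09, adjusted p = 3.21e-16). Atp5b had 423, 568 and 729 CPM in deficient cells, against 1190, 1370 and 1580 CPM in wild type (-1.26 ± 0.09, adjusted p = 1.26e-15). None of these ranges overlapped. Uqcrq had 36.2, 43.5 and 69.5 CPM in deficient cells, against 89.2, 110 and 161 CPM in wild type (-1.27 ± 0.10, adjusted p = 1.68e-13), and Ndufaf4 6.33, 7.55 and 10.0 CPM, against 14, 17 and 19.3 CPM (-1.07 ± 0.10, adjusted p = 1.25e-11). These ranges did not overlap either. Sdhb had 69.7, 80.4 and 104 CPM in deficient cells, against 120, 129 and 156 CPM in wild type (-0.67 ± 0.08, adjusted p = 6.36e-09).

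Other falls of more than 1 log2 unit included Ndufb2 (-1.27 ± 0.11), Ndufv3 (-1.24 ± 0.09), a small accessory subunit beside the NADH site, Ndufab1 (-1.20 ± 0.10), which is also the mitochondrial acyl carrier protein, Uqcr11 (-1.20 ± 0.11) and Cox6a1 (-1.24 ± 0.09). In complex II, Sdhd and Sdhc fell by 0.63 and 0.61 on the log2 scale (SE 0.08 and 0.07) and Sdha by 0.30 (SE 0.07). Of the c subunit genes, Atp5g3 and Atp5g1 fell by 1.07 and 1.05 (SE 0.07 and 0.10) and Atp5g2 by 0.32 (SE 0.07, adjusted p = 0.00024). Without a filter on low counts the calls of Atp5g2 (-0.14, adjusted p = 0.2) and Sdha (-0.11, adjusted p = 0.266) were lost. Atp5g2 alone of the 3 overlapped, at 182, 218 and 295 CPM in deficient cells, against 251, 276 and 353 CPM in wild type. Cox7a1 averaged 0.846 ± 0.59 CPM in deficient cells and 1.53 ± 0.74 CPM in wild type (-0.94 ± 0.35, adjusted p = 0.0187), and was not called without the doubted libraries (adjusted p = 0.0699). Cox4i1 (-0.07 ± 0.09), Uqcrh (-0.06 ± 0.10) and Ndufaf7 (-0.07 ± 0.09) were not called.

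The genes that rose included the 4 that fell with IL-2. Atp5sl averaged 37.6 ± 4.5 CPM in deficient cells and 18.2 ± 2.5 CPM in wild type (SD, n = 6 each; log2 fold change 1.05 ± 0.10, adjusted p = 2.44e-12), without overlap. Cox7a2l rose by 0.37 ± 0.09 (adjusted p = 0.000606), Atp5s by 0.47 ± 0.16 and Ndufa6 by 0.35 ± 0.11. Cox6b2 averaged 9.21 ± 6.6 CPM in deficient cells and 2.81 ± 1.3 CPM in wild type (1.38 ± 0.31, adjusted p = 0.000242), and without the doubted libraries its log2 fold change was 0.85 and was not called (adjusted p = 0.10). The IL-2 and STAT5-loss comparisons share no library. Of the 74 genes higher with IL-2 and the 76 lower in deficient cells, 73 were the same (98.6% and 96.1% of the lists). Over all 12258 genes tested in both, the shared genes were 84.7% of those higher with IL-2 and 87.4% of those lower in deficient cells.

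Of the further lists, 18 of 36 assembly factors fell and 4 rose, 15 of 19 other chain genes fell and none rose, and 11 of 24 regulators fell and 4 rose. Over all genes tested 30.8% were called lower and 28.8% higher. Cycs (log2 fold change -1.81 ± 0.10), Phb (-1.56 ± 0.11), the copper chaperone Cox17 (-1.48 ± 0.15), Pprc1 (-1.91 ± 0.20) and Myc (-1.64 ± 0.20) were among those that fell. Sdhaf1, an assembly factor of complex II, rose by 0.79 ± 0.10, Surf1 by 0.58 ± 0.08, Polg2 by 0.92 ± 0.10 and Foxo1 by 0.98 ± 0.08. The myeloid list was at 65.7 to 253.5 CPM in deficient cells (8 of 9 detected, Lyz2 at 0) and 41.5 to 168.0 CPM in wild type (9 of 9), and the B cell list at 3.6 to 11.4 CPM in deficient cells and 1.2 to 3.7 CPM in wild type. The T cell list was at 3028 to 3409 CPM in deficient cells and 2471 to 2977 CPM in wild type, without overlap. Rn45s was at 1608 to 9948 CPM in deficient cells and 781 to 3349 CPM in wild type. Lyz2 was at most 0.106 CPM and Csf1r at most 0.626 CPM. Others of the myeloid list were higher: Cd74 ranged from 6.98 to 231 CPM, Cd68 from 0.956 to 11.7 CPM and Itgam from 0.292 to 8.91 CPM. The part of these lists and of Rn45s in the result was not tested.

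**Figure D2:**
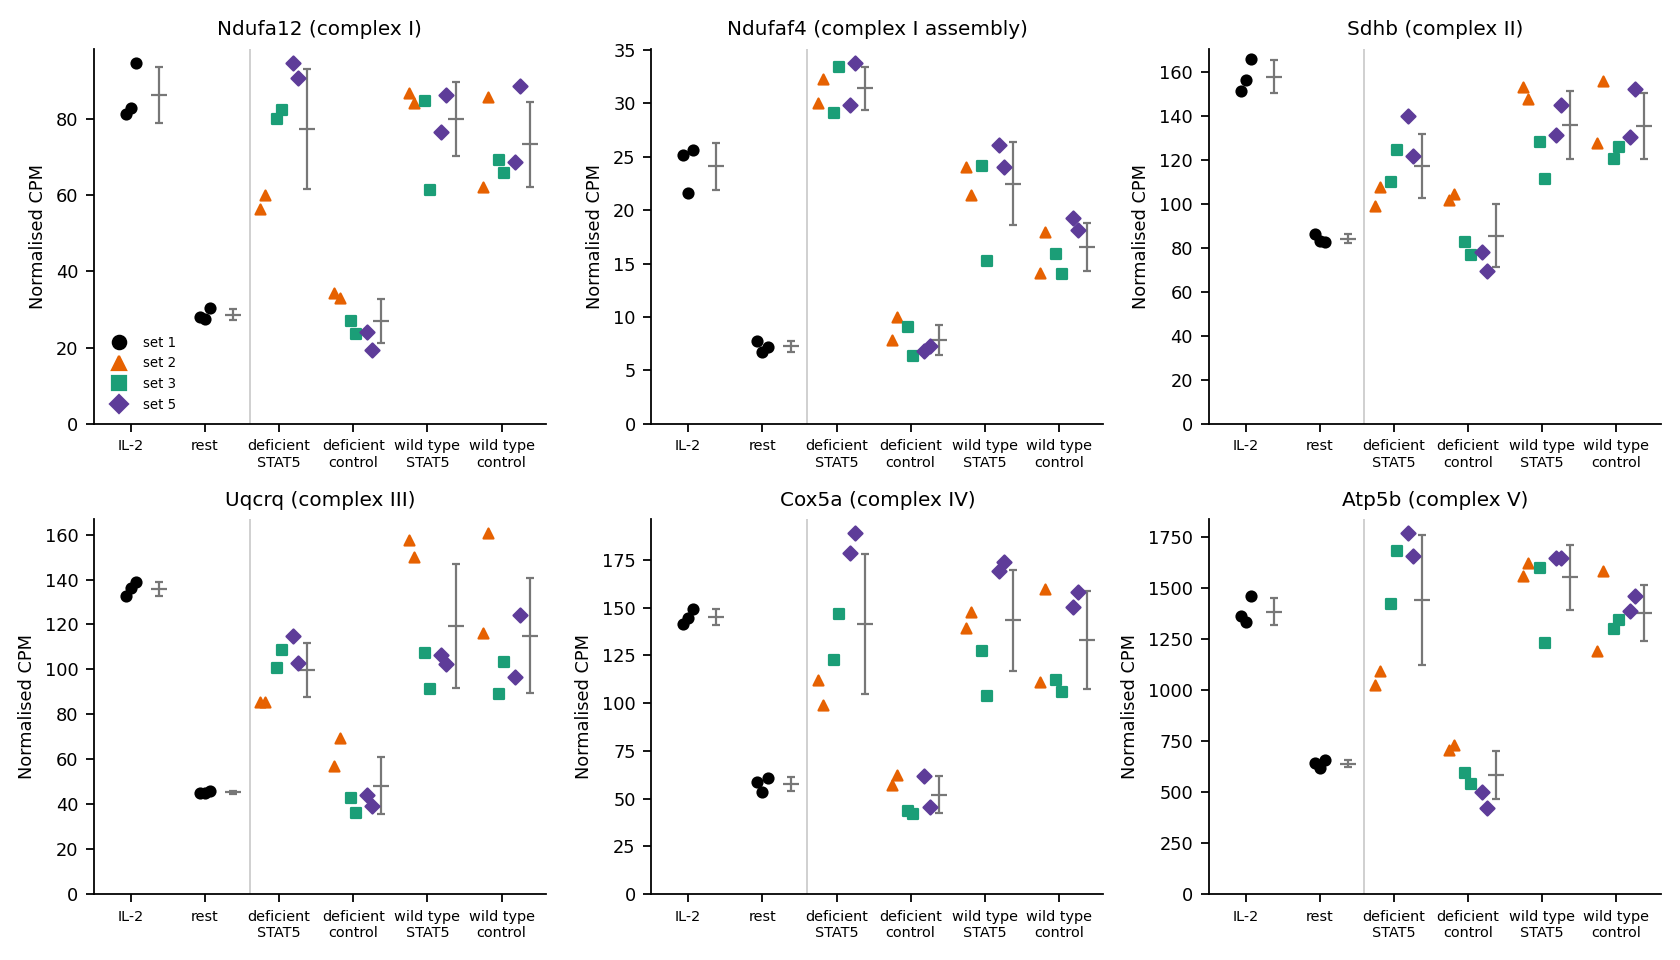
CPM in every library of Ndufa12, Ndufaf4, Sdhb, Uqcrq, Cox5a and Atp5b, for IL-2 and rest, deficient cells with STAT5 and control vectors, and wild-type cells with STAT5 and control vectors. Marker shape and colour give the set and grey bars the mean and SD, and Ndufaf4 in deficient cells with the STAT5 vector (29.1 to 33.8 CPM) lies above wild-type controls (14 to 19.3 CPM).

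Putting STAT5 back into deficient cells raised 67 of 85 genes and lowered 5 (edgeR, 6 libraries each). Over all genes tested 31.9% were called higher and 29.5% lower, and the median log2 fold change was 0.54, against -0.07 over all genes. Complex I had 28 genes higher and 2 lower (median 0.55), complex II 4 and 0 (0.48), complex III 7 and 1 (0.86), complex IV 9 and 1 (0.40), complex V 13 and 0 (0.68) and the assembly factors 6 and 0 (0.34). The sets were unequal: 12 genes rose and 4 fell in set 2 (median 0.13), 63 and 3 in set 3 (0.67), and 70 and 3 in set 5 (0.89). The difference between sets was not tested. Whether set 2 differs for these genes or for all genes cannot be told from these counts, as all-gene shares within a set were not counted. Without the doubted libraries, 70 rose and 4 fell. These deficient controls are the same libraries as in the comparison of deficient with wild type, so opposite directions for a gene in the 2 comparisons are not independent.

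Ndufaf4 had the largest increase, with 29.1, 31.2 and 33.8 CPM as its lowest, median and highest values with the STAT5 vector, against 6.33, 7.55 and 10.0 CPM with control (log2 fold change 2.0 ± 0.10, adjusted p = 2.76e-19). Ndufab1 had 61.6, 79.2 and 94.3 CPM, against 17.5, 25.1 and 40.2 CPM (1.58 ± 0.10, adjusted p = 3.38e-17). Ndufa12 had 56.5, 81.1 and 94.6 CPM, against 19.4, 25.5 and 34.3 CPM (1.52 ± 0.10, adjusted p = 1.4e-16). The vector and control ranges of these 3 genes did not overlap. Cox5a had 98.8, 135 and 189 CPM with the STAT5 vector, against 42.0, 51.3 and 62.6 CPM with control (1.42 ± 0.09, adjusted p = 6.26e-17), and Atp5b 1020, 1540 and 1770 CPM, against 423, 568 and 729 CPM (1.30 ± 0.09, adjusted p = 4.32e-16). Both were again without overlap.

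By set, Ndufa12 was at 56.5 and 60.0 CPM with the STAT5 vector in set 2, against 34.3 and 33.1 CPM with control. In set 3 it was at 79.9 and 82.3 CPM, against 27.1 and 23.5 CPM, and in set 5 at 94.6 and 90.8 CPM, against 24 and 19.4 CPM. Its log2 fold change was 0.79 ± 0.17, 1.68 ± 0.17 and 2.10 ± 0.18 in the 3 sets, and each was called. Among the other assembly factors, Ndufaf2 rose by 1.23 ± 0.13 and Ndufaf6 by 1.15 ± 0.12. In complex III Uqcrq rose by 1.07 ± 0.10 and Uqcr11 by 1.06 ± 0.11, and in complex II the log2 fold changes ran from 0.33 ± 0.07 (Sdha) to 0.61 ± 0.08 (Sdhd). Of the c subunit genes, Atp5g1 rose by 1.12 ± 0.10 and Atp5g3 by 0.95 ± 0.07, and Atp5g2 was not called (0.10 ± 0.07, adjusted p = 0.234).

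Genes that fell with the STAT5 vector included Atp5sl (-0.87 ± 0.09), Cox7a2l (-0.80 ± 0.09), Ndufa6 (-0.66 ± 0.11) and Uqcrh (-0.30 ± 0.10). Cox7a2l had 152, 179 and 258 CPM with the STAT5 vector, against 304, 325 and 359 CPM with control, without overlap. Of the further lists, 21 of 36 assembly factors rose and 4 fell, 15 of 19 other chain genes rose and 1 fell, and 13 of 24 regulators rose and 3 fell. Of all genes tested 31.9% were called higher and 29.5% lower. Pprc1 rose by 2.64 ± 0.21 on the log2 scale, Phb by 2.2 ± 0.11, Cox17 by 1.96 ± 0.15 and Myc by 1.64 ± 0.20, while Surf1 fell by 0.82 (SE 0.08) and Sdhaf1 by 0.80 (SE 0.10). The myeloid list was at 42.4 to 137.2 CPM with the STAT5 vector (9 of 9 detected) and 65.7 to 253.5 CPM with control, and the B cell list at 0.9 to 4.1 CPM with the STAT5 vector and 3.6 to 11.4 CPM with control. The T cell list was at 1958 to 2237 CPM with the STAT5 vector and 3028 to 3409 CPM with control, and the CD8 list at 12.5 to 14.2 CPM with the STAT5 vector and 16.4 to 28.4 CPM with control, both without overlap. The part of these lists was not tested.

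The STAT5 vector in wild-type cells raised 4 genes and lowered none, where 8.83% of all genes were called higher and 8.41% lower. They were Ndufaf4 (log2 fold change 0.46 ± 0.10, adjusted p = 0.000551), Ndufab1 (0.33 ± 0.09), Uqcrfs1 (0.25 ± 0.08) and the alpha subunit Atp5a1 (0.22 ± 0.08, adjusted p = 0.0396). This is a smaller share than over all genes, and the median of the 85 was -0.02, against -0.03 over all genes. Leaving out 1 library moved the count to between 1 and 5, with 1 left without the first wild-type control of set 2 or the first wild-type STAT5 library of set 3, and 2 left without any of 7 others. Without the doubted libraries it was 7. By an interaction test, the log2 fold change with the vector was higher in deficient cells than in wild type for 64 genes and lower for 3. Of all genes 25.3% and 19.9% were called in those directions, and the median difference of the 85 was 0.57. Ndufaf4 (1.54 ± 0.14), Ndufa12 (1.39 ± 0.14) and Cox5a (1.31 ± 0.12) led, and Atp5sl (-0.86 ± 0.14), Cox7a2l (-0.61 ± 0.13) and Ndufa6 (-0.51 ± 0.16) ran the other way. Within sets the interaction was called higher for 2 genes in set 2, 51 in set 3 and 67 in set 5. It was called higher for 67 genes and lower for 3 without the doubted libraries.

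Deficient cells given STAT5 were also compared with wild type carrying control vectors, and had 25 genes lower and 5 higher, where 19% of all genes were called in each direction. The median was -0.16, against 0 over all genes. Set 2 gave most of this, with 39 lower and 3 higher, against 1 and 5 in set 3 and 1 and 4 in set 5. Leaving out the second wild-type control of set 2 left 16 called, and leaving out the second wild-type control of set 5 left 18. Ndufaf4 stood above wild type, at 29.1 to 33.8 CPM in deficient cells with STAT5, against 14 to 19.3 CPM in wild-type controls (log2 fold change 0.93 ± 0.10, adjusted p = 2.21e-10). Cox6b2 (1.44 ± 0.28), Ndufaf2 (0.42 ± 0.12), Ndufab1 (0.38 ± 0.09) and Atp5a1 (0.19 ± 0.08) were also higher. Cox7a2l (-0.43 ± 0.09), Uqcrh (-0.36) and Sdhb (-0.21) were among those lower, by complex 11 in complex I, 1 each in complexes II and III, 4 in complex IV and 8 in complex V. Without a filter on low counts Sdhb was not called (-0.14, adjusted p = 0.306) and 13 genes were called in all, and with only the libraries compared Atp5a1 was not called (adjusted p = 0.0629). With the doubted libraries left out, 29 genes were lower and 7 higher. The T cell list was at 1958 to 2237 CPM in deficient cells with STAT5 and 2471 to 2977 CPM in wild-type controls, and its part was not tested.

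**Figure D3:**
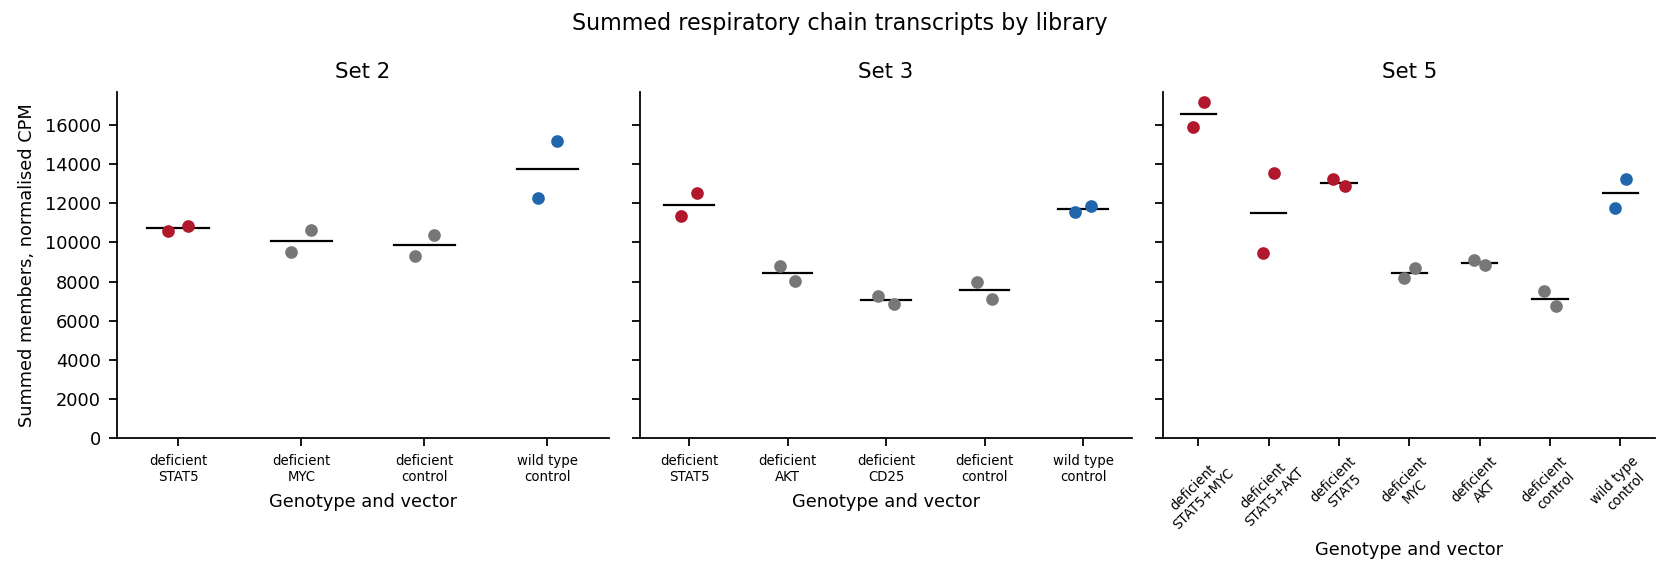
Summed CPM of the 84 genes kept in all 7 sets, in each library of sets 2, 3 and 5, by genotype and vector, with bars at the group means. Deficient cells with the STAT5 vector held 10564 to 10850 CPM in set 2, 11335 to 12491 CPM in set 3 and 12860 to 13226 CPM in set 5, against 9319 to 10369, 7110 to 8001 and 6743 to 7506 CPM with control.

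MYC and AKT each gave fewer calls in the chain in deficient cells than the STAT5 vector did, also within each set they shared. The total counts are not on equal terms. They rest on 4 libraries a group for MYC (sets 2 and 5) and AKT (sets 3 and 5), and on 6 for STAT5. In set 2 the STAT5 vector itself raised only 12 genes and lowered 4. MYC, a growth regulator that can bind E-boxes, raised 12 of 85 genes and lowered none (median 0.15), where 9.65% of all genes were called higher and 2.85% lower. Ndufaf4 averaged 12.9 ± 3.1 CPM with MYC and 7.98 ± 1.4 CPM with control (SD, n = 4 each; log2 fold change 0.67 ± 0.13, adjusted p = 0.000377). Ndufa12 (0.62 ± 0.12), Ndufab1 (0.58 ± 0.12), Atp5g1 (0.53 ± 0.12) and Atp5b (0.49 ± 0.11) followed, and Sdhc was the complex II subunit called (0.28 ± 0.09). Its call was lost without a filter on low counts (adjusted p = 0.159) and with only the libraries compared (adjusted p = 0.0618). Cox5a (0.32 ± 0.11, adjusted p = 0.0446) lost its call with another scaling (adjusted p = 0.0641). Without the second deficient control of set 5 the count was 6, and within sets 2 genes rose and 1 fell in set 2, and 8 rose in set 5. Without the doubted libraries 18 rose.

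AKT, a kinase of the growth factor pathway, raised 39 genes and lowered 2 in deficient cells (median 0.32), where 17% of all genes were called higher and 11.3% lower. Uqcrq stood at 70.8 and 63.6 CPM with AKT in set 3 and 83.9 and 79.0 CPM in set 5, against 42.9 and 36.2 CPM and 44.2 and 39.4 CPM with control (log2 fold change 0.86 ± 0.13, adjusted p = 1.67e-06). The groups did not overlap in either set. Ndufa1 (0.84 ± 0.14), Ndufa4 (0.70 ± 0.14) and Ndufaf2 (0.69 ± 0.17) were close behind. Sdhb averaged 117 ± 7.5 CPM with AKT and 76.8 ± 5.5 CPM with control (0.61 ± 0.10, adjusted p = 1.64e-05), and no other subunit of complex II was called. Atp5g1 was not called (0.07 ± 0.12), and Atp5sl (-0.56 ± 0.12) and Ndufa6 (-0.36 ± 0.14) fell, Ndufa6 not without the doubted libraries (adjusted p = 0.0728). Within sets 15 rose and 1 fell in set 3, and 30 and 1 in set 5, and without the doubted libraries 52 rose and 1 fell.

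In wild-type cells MYC and AKT gave few calls. MYC had 0 of 85 genes called by edgeR, where 0.636% of all genes were called higher and 0.177% lower, with 8 at an unadjusted p below 0.05 and 2 called by DESeq2. AKT raised Ndufaf4 (0.45 ± 0.12, adjusted p = 0.0152) and lowered Cox7a2l (-0.47 ± 0.11, adjusted p = 0.00717), where 1.31% of all genes were called higher and 3.63% lower, and leaving out any of 6 of the 8 libraries left 1 call. Without the doubted libraries 1 gene was called with MYC, and 1 rose and 1 fell with AKT. Whether the MYC and AKT effects differ between genotypes was not tested.

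Compared directly in deficient cells, MYC left 54 genes lower and 3 higher than the STAT5 vector (median -0.33), where 24.4% of all genes were called lower and 21.6% higher. Within sets 8 were lower in set 2 and 60 in set 5. Ndufaf4 (-1.32 ± 0.12), Cox5a (-0.98 ± 0.11), Ndufab1 (-0.94 ± 0.12) and Ndufa12 (-0.83 ± 0.12) differed most among the leading genes, and Atp5sl, Cox7a2l and Ndufa6 were higher with MYC. AKT left 58 lower and 6 higher than the STAT5 vector (median -0.44, against 0.11 over all genes), where 29.6% of all genes were called lower and 27% higher, with 45 lower in set 3 and 50 in set 5. Ndufab1 (-1.6 ± 0.12), Ndufaf4 (-1.6 ± 0.12), Ndufa12 (-1.37 ± 0.12) and Atp5g1 (-1.36) differed most. When the doubted libraries were left out, MYC left 48 lower and 4 higher, and AKT 60 lower and 6 higher. MYC and AKT were each set against the same STAT5 libraries in set 5 and were not compared with each other.

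With STAT5 already present in deficient cells, added MYC raised 11 genes further and lowered none (median 0.32), where 4.33% of all genes were called higher and 1.75% lower. Atp5g1 (0.73 ± 0.16, adjusted p = 0.00473), Ndufaf4 (0.70 ± 0.16, adjusted p = 0.00549), Sdhb (0.49), Sdhd (0.48) and the core proteins Uqcrc2 (0.46) and Uqcrc1 (0.43) were among them. The count fell to 0 without the second library of either group, to 2 without the first STAT5 library and to 6 without the first library with MYC, and was 22 without the doubted libraries. Added AKT gave 0 calls by edgeR (median -0.20; 0.147% and 0.202% of all genes called higher and lower), with 5 at an unadjusted p below 0.05 and 0 by DESeq2. Without its second library, 27 were called, and the remaining library is the one in which Rn45s took 250000 CPM. The CD25 vector, which supplies the IL-2 receptor alpha chain, gave 0 calls in deficient cells by edgeR and DESeq2, 0 at an unadjusted p below 0.05, and 0% of all genes. Added AKT and CD25 each gave 0 calls without the doubted libraries too.

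**Figure D4:**
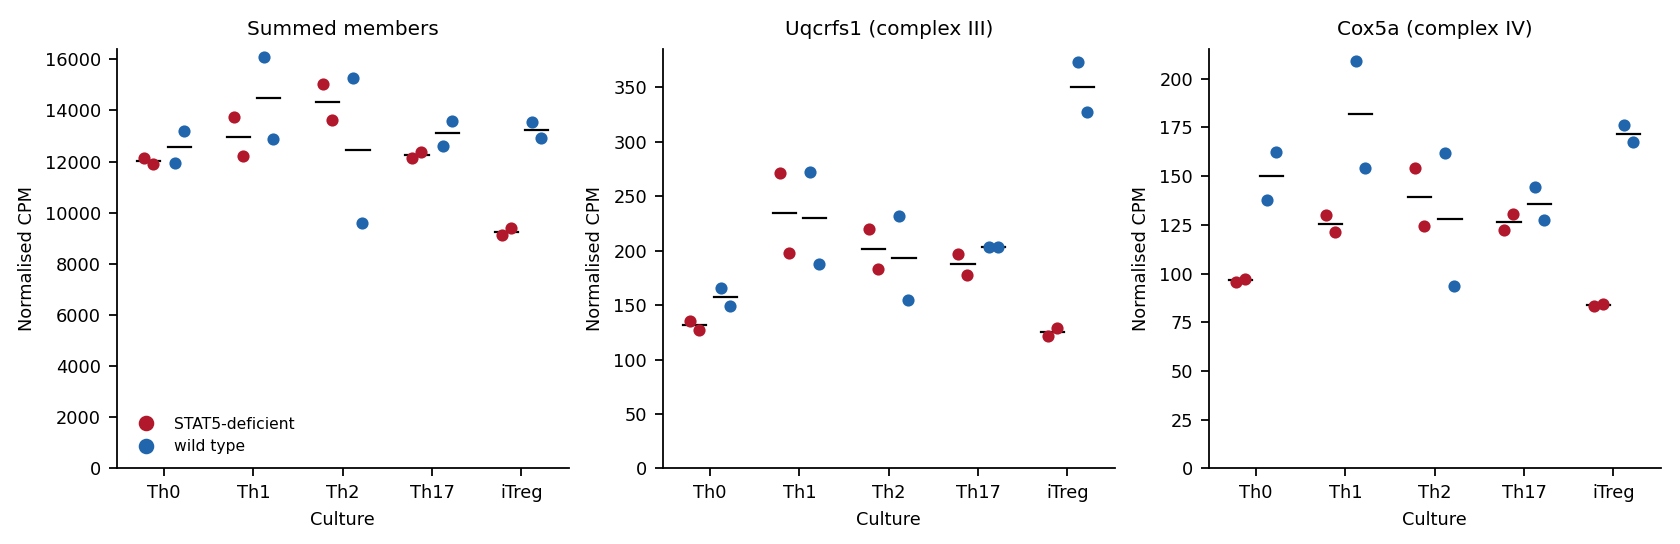
Summed CPM of the 84 genes kept in all 7 sets, and CPM of Uqcrfs1 and Cox5a, in each library of the 5 helper cultures. Deficient cells are in red on the left and wild type in blue on the right of each culture, with bars at the means. In iTreg cultures the summed level was 9134 to 9388 CPM in deficient cells and 12930 to 13549 CPM in wild type.

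In 3-day helper cultures, STAT5 loss gave the most calls in the chain under iTreg conditions. There 30 of 85 genes fell and none rose (edgeR), where 11.3% of all genes were called in each direction, and the median log2 fold change was -0.45, against 0.03 over all genes. They were 12 genes of complex I, 1 of complex II, 5 of complex III, 6 of complex IV, 4 of complex V and 2 assembly factors. Uqcrfs1, the Rieske protein, stood at 121.2 and 128.6 CPM in deficient iTreg cells, against 373.2 and 327.1 CPM in wild type (-1.49 ± 0.22, adjusted p = 0.000142). Ndufa12 stood at 39.4 and 43.8 CPM, against 87.7 and 82.7 CPM (-1.03 ± 0.18, adjusted p = 0.000592). Atp5b stood at 857.1 and 805.2 CPM, against 1753 and 1561 CPM (-1.0 ± 0.17, adjusted p = 0.000663). The groups of all 3 genes were apart. Cox5a fell by 1.03 on the log2 scale (SE 0.22), Ndufab1 by 0.97, Ndufaf4 by 0.77 (SE 0.24) and Sdhb by 0.60 (SE 0.19, adjusted p = 0.0297). With only the libraries compared Ndufaf4 was not called (adjusted p = 0.103). The count was 9 and 11 without the first and second deficient libraries and 10 without the first wild-type library. The myeloid list was at 74.0 to 128.4 CPM in deficient and 155.3 to 234.8 CPM in wild-type iTreg cells (8 of 9 detected in each, Lyz2 at 0 in deficient and Csf1r at 0 in wild type), and the NK cell list at 0.7 to 1.9 CPM in deficient and 0.2 to 0.3 CPM in wild type. The B cell list was at 5.2 to 6.3 CPM in deficient and 1.0 to 2.3 CPM in wild-type cells, and the T cell list at 2696 to 3062 CPM in deficient and 2200 to 2439 CPM in wild-type cells. The groups were apart for these lists, whose part was not tested. Foxp3, which marks this culture, was at 147 to 189 CPM in deficient and 301 to 324 CPM in wild-type cells, without TMM scaling.

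The other cultures gave few calls. In Th0, 0 genes were called by edgeR (3.83% and 2.7% of all genes higher and lower), with 3 at an unadjusted p below 0.05 and 2 called by DESeq2. In Th1, Cox6b2, Ndufb11 and Ndufaf6 fell (6.33% of all genes higher, 5.63% lower), and none was called without the first wild-type library and 1 without the second deficient library. In Th17, Ndufb11 alone fell (2.35% and 2.58%), and not without either deficient library. In Th2, 7 genes rose and Ndufb11 fell (7.58% and 4.16%), with Ndufaf4 at 21.6 and 24.5 CPM in deficient cells, against 12.5 and 13 CPM in wild type (log2 fold change 0.85 ± 0.24, adjusted p = 0.0286, and 0.0773 with only the libraries compared). Without either deficient Th2 library 1 was called and without the first wild-type library 27, the summed level being 13619 to 15043 CPM in deficient cells and 9605 to 15262 CPM in wild type.

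Markers of other cells also separated deficient from wild-type cultures. The myeloid list was at 158.7 to 218.0 CPM in deficient Th0 cells, against 104.9 to 118.1 CPM in wild type, at 241.2 to 288.3 CPM in deficient Th1 cells, against 99.8 to 112.4 CPM in wild type, and at 187.5 to 223.8 CPM in deficient Th17 cells, against 112.5 to 134.0 CPM in wild type. The NK cell list was at 15.2 to 25.7 CPM in deficient Th1 cells, against 1.4 to 2.4 CPM in wild type, and at 4.1 to 4.3 CPM in deficient Th17 cells, against 0.6 to 1.0 CPM in wild type. In Th17 the T cell list was at 1748 to 1950 CPM in deficient cells, against 2621 to 2635 CPM in wild type. In Th2 Rn45s was at 6529 to 7089 CPM in deficient cells, against 4344 to 5778 CPM in wild type. Lyz2 was at 0 in deficient Th0 and Th1 cells, and the part of these lists was not tested.

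Ndufb11, an X-linked accessory subunit of the complex I membrane arm, was called lower in deficient Th1, Th2 and Th17 cells. It stood at 122.6 and 112.6 CPM in deficient Th1 cells, against 252.0 and 179.5 CPM in wild type. In Th2 it stood at 136.4 and 114.7 CPM, against 306.6 and 175.8 CPM, and in Th17 at 104.8 and 104.3 CPM, against 201.6 and 203.1 CPM. The groups did not overlap in any of the 3 cultures. In Th0 it stood at 108.2 and 109.1 CPM in deficient cells, against 108.0 and 101.4 CPM in wild type, and was not called. Averaged over the 5 cultures, 11 genes fell and none rose (median -0.13; 12.2% of all genes lower, 15.1% higher), led by Ndufb11 (-0.65 ± 0.10, adjusted p = 9.13e-05), Cox5a (-0.44 ± 0.10) and Uqcrfs1 (-0.36). This count ranged from 6 to 44 as single libraries were left out. It was 44 without the second wild-type Th2 library, 24 without the second wild-type Th1 library, 19 and 18 without the first and second deficient Th1 libraries, 18 without the second wild-type iTreg library, 7 without the first deficient Th17 or the second wild-type Th0 library and 6 without the first deficient iTreg library.

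The difference between iTreg and Th0 cultures was tested for itself, a comparison added after their values had been seen. Uqcrfs1 alone was called, with the effect of STAT5 loss lower in iTreg by 1.23 on the log2 scale (SE 0.30, adjusted p = 0.0377), where 1.26% of all genes were called higher and 1.43% lower. It stood at 135.8 and 127.0 CPM in deficient Th0 cells, against 165.4 and 149.2 CPM in wild type. The call was lost without either deficient library of either culture, without the first wild-type Th0 library and without the first wild-type iTreg library. All 85 estimates were below 0 (median -0.47), and 20 had an unadjusted p below 0.05.

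**Figure D5:**
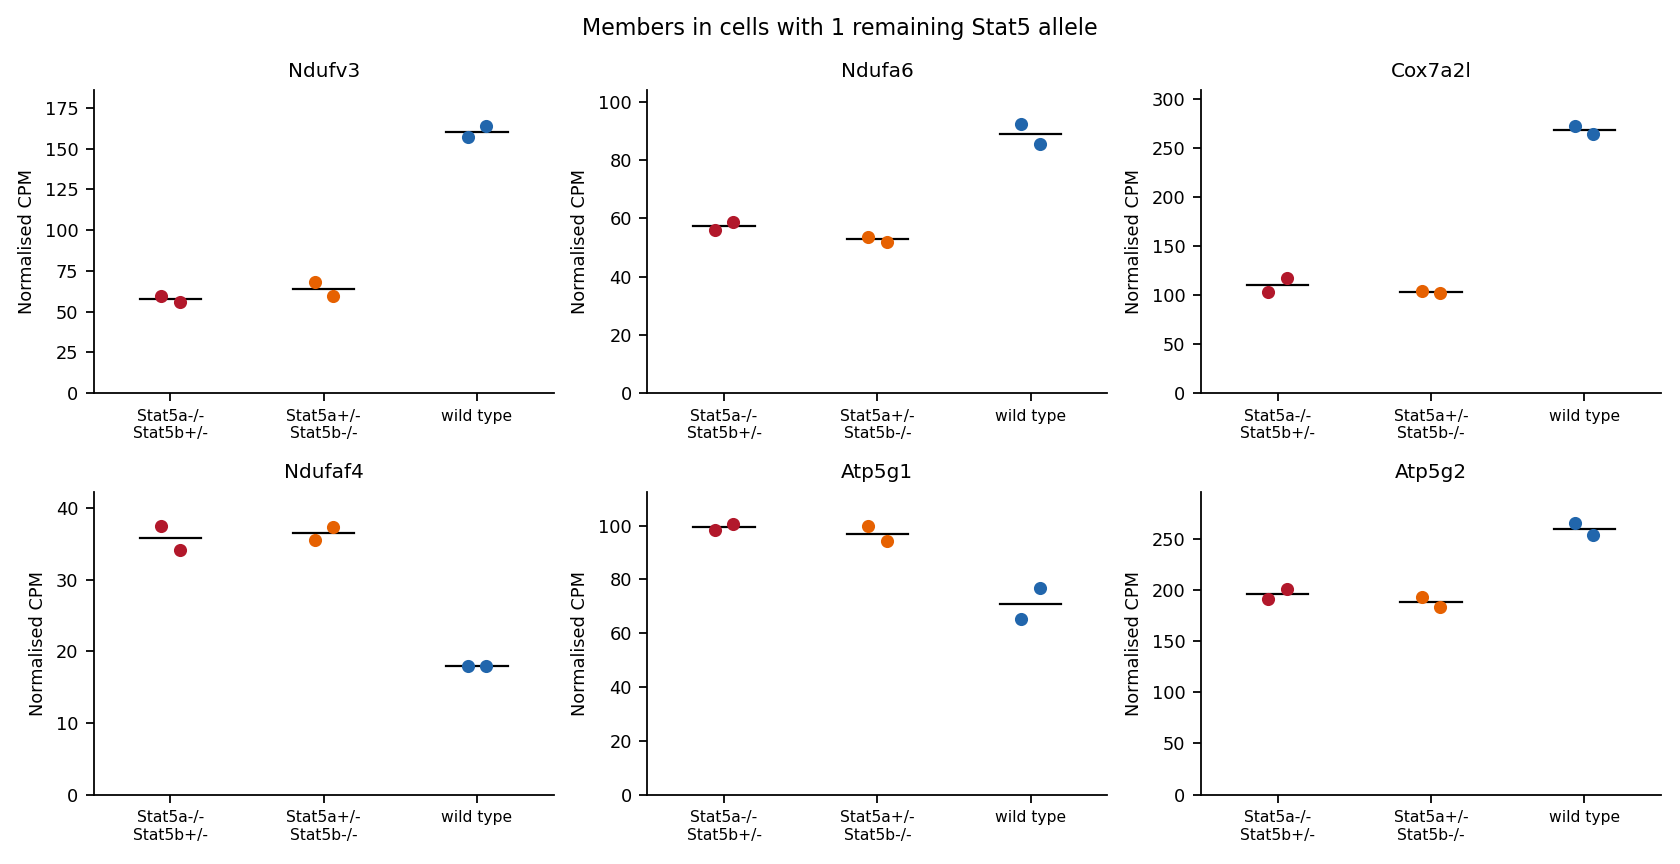
CPM in each library of set 7 of Ndufv3, Ndufa6, Cox7a2l, Ndufaf4, Atp5g1 and Atp5g2 in Stat5a-/- Stat5b+/-, Stat5a+/- Stat5b-/- and wild-type cells. Ndufaf4 lay at 34.1 to 37.5 CPM in both mutants and near 18 CPM in wild type, and Cox7a2l at 101.7 to 117.8 CPM in the mutants and 264.3 to 272.7 CPM in wild type.

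In cells with 1 functional Stat5 allele, genes of the chain were called in both directions. In Stat5a-/- Stat5b+/- cells 28 of 85 genes rose and 14 fell (29.2% and 28.3% of all genes), with a median of 0.07, and in Stat5a+/- Stat5b-/- cells 25 rose and 19 fell (28.8% and 28.4%), with a median of 0.04. In both genotypes the shares called higher were near those of all genes, and the shares called lower were below them. Without the first Stat5a-/- Stat5b+/- library 24 were called in that genotype. Summed levels were 11028 to 11240 CPM in Stat5a-/- Stat5b+/- cells, 10965 to 11380 CPM in Stat5a+/- Stat5b-/- cells and 10413 to 10475 CPM in wild type. Stat5a was at 4.69 and 4.92 CPM in Stat5a-/- Stat5b+/- cells, against 197.9 and 194.0 CPM in wild type. Stat5b was at 28.7 and 31.2 CPM in Stat5a+/- Stat5b-/- cells, against 268.3 and 282.8 CPM. Complete loss and the single-allele genotypes come from different sets and were not tested against each other, and both mutants share the wild-type libraries.

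Individual genes were far apart in set 7. Ndufv3 stood at 59.3 and 55.8 CPM in Stat5a-/- Stat5b+/- cells and 68.3 and 59.3 CPM in Stat5a+/- Stat5b-/- cells, against 157.4 and 163.6 CPM in wild type. Its log2 fold changes were -1.48 ± 0.08 (adjusted p = 1.88e-08) and -1.33 ± 0.08 (adjusted p = 3.55e-08). Cox7a2l stood at 102.8 and 117.8 CPM in Stat5a-/- Stat5b+/- cells and at 104.3 and 101.7 CPM in Stat5a+/- Stat5b-/- cells, against 272.7 and 264.3 CPM in wild type. It fell by 1.29 and 1.38 on the log2 scale (SE 0.07 each). Both mutants lay apart from wild type for these 2 genes, and Cox7a2l was lower here but higher in the fully deficient cells of the vector sets. Ndufa6 fell by 0.64 and 0.75, Atp5g2 by 0.41 and 0.46, Ndufb11 by 0.35 and 0.38 and Cox4i1 by 0.25 and 0.30. Ndufaf4 stood at 37.5 and 34.1 CPM in Stat5a-/- Stat5b+/- cells and 35.5 and 37.4 CPM in Stat5a+/- Stat5b-/- cells, against 18.0 and 18.0 CPM in wild type (1.0 ± 0.11 and 1.02 ± 0.10, adjusted p = 4.48e-06 and 3.11e-06). Atp5g1 rose by 0.49 ± 0.08 and 0.45 ± 0.08, Atp5g3 by 0.40 and 0.35 and Atp5b by 0.39 and 0.48, so that the c subunit genes were called in opposite directions. The myeloid list was at 21.4 to 24.1 CPM in Stat5a-/- Stat5b+/- cells, 62.3 to 64.7 CPM in Stat5a+/- Stat5b-/- cells and 139.7 to 153.5 CPM in wild type, with Csf1r at 0 in all. Rn45s was at 4301 to 6712 CPM in Stat5a-/- Stat5b+/- cells, 3165 to 4369 CPM in Stat5a+/- Stat5b-/- cells and 2171 to 2342 CPM in wild type. The CD8 list was at 4.2 to 5.1 CPM in Stat5a-/- Stat5b+/- cells, 3.9 to 6.7 CPM in Stat5a+/- Stat5b-/- cells and 10.2 to 12.5 CPM in wild type. Neither mutant overlapped wild type in these, and their part was not tested.

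In Treg cells overnight culture with IL-2 moved few genes of the chain. No group was cultured without IL-2, so IL-2 and the culture itself cannot be told apart. Of 84 genes, 3 rose and 8 fell, where 16% of all genes were called higher and 16.6% lower, and the median was 0.00. Cox7a2l stood at 221.0 and 261.8 CPM after IL-2, against 331.5 and 338.4 CPM ex vivo (log2 fold change -0.47 ± 0.08, adjusted p = 0.00135). Atp5g1 stood at 31.9 and 39.7 CPM, against 49.5 and 50.2 CPM (-0.48 ± 0.11, adjusted p = 0.00775), and Ndufaf4 at 13.1 and 15.3 CPM, against 18.9 and 19.4 CPM (-0.42 ± 0.14, adjusted p = 0.0375). None of these groups overlapped. Ndufa10, Uqcr10, Atp5e, Atp5g2 and Uqcrh also fell, and Uqcrb (0.31 ± 0.10), the F1 subunit Atp5d (0.31 ± 0.09) and Cox6b2 (1.77 ± 0.58, below 2 CPM) rose. DESeq2 called 5, and not Ndufaf4 (adjusted p = 0.282), Cox6b2, Uqcrb, Uqcr10, Uqcrh or Atp5e (adjusted p from 0.101 to 0.264), while the replicate number as a block gave 19. Without the first or the second ex vivo library 6 or 4 were called. Summed levels were 5613 to 6277 CPM after IL-2 and 6171 to 6198 CPM ex vivo, and Foxp3, without TMM scaling, was at 1450 to 1510 CPM after IL-2 and 885 to 925 CPM ex vivo. The B cell list was at 103.7 to 266.0 CPM after IL-2 and 104.4 to 230.7 CPM ex vivo. The T cell list was at 2531 to 2564 CPM after IL-2 and 3295 to 3342 CPM ex vivo, and the NK cell list at 1.3 to 1.9 CPM after IL-2 and 3.7 to 4.1 CPM ex vivo, both without overlap. The part of these lists was not tested.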

How the data were processed

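Per the submitters' processing notes, which name no versions and no strand setting, the authors aligned reads to mm9 using Bowtie2 and TopHat2 and deposited raw counts from HTSeq, 1 table a set. The libraries were poly(A)-selected, per the labels' protocols. In sets 4 and 6, 27 rows with names turned into dates were left out (at most 0.266% of a library), and in sets 1 and 3, 250 missing hyphens in symbols were restored. No replicate pair of 47 was identical. Peak lists were not used, since no mm9 annotation was at hand.

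Counts were tested with edgeR 4.0.16 (R 4.3.3): filterByExpr, TMM scaling and a robust quasi-likelihood fit with 1 mean per group, adjusted by Benjamini-Hochberg over all genes and called below 0.05. Sets 2, 3 and 5 share a model (52 libraries, 26 groups, 16359 genes) in which differences are averaged within sets. Sets 1, 4, 6 and 7 have their own (12262, 15299, 11942 and 12392 genes). With 2 libraries in most groups, the spread rests on all groups of a model. The script was tested on simulated data. Alternatives were RLE scaling, no filter on low counts, DESeq2 1.42.0, a replicate block, only the libraries compared, and each library left out. Leaving out the 5 doubted libraries and the test of iTreg minus Th0 were chosen after seeing the data.

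Genes named are the Sdh subunits, isoform pairs, the called genes with the largest change per complex whose libraries do not overlap, and called genes that run against their complex. Ndufb11 by library, and core subunits and assembly factors beyond this rule, were named after their values were seen. The members, lists and rule were chosen with earlier results of these data known. Paralogs such as Atp5g1, Atp5g2 and Atp5g3 can share reads. Values of some single genes are not reported here.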

Additional observations from a re-analysis of the deposited data

Results flagged for a closer look

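Among these genes 2 differences between groups passed a test of the difference itself. The STAT5 vector acted differently in deficient and wild-type cells for 67 of the 85 genes. The difference in log2 fold change, deficient minus wild type, was positive for 64 and negative for 3. These 3, Atp5sl, Cox7a2l and Ndufa6, fell with the vector in deficient cells. Within sets the difference was called positive for 2 genes in set 2, 51 in set 3 and 67 in set 5. STAT5 loss acted differently in iTreg and Th0 cultures for 1 gene, Uqcrfs1 (log2 difference -1.23 ± 0.30, adjusted p = 0.0377), a call lost without any of 6 of the 8 libraries. Every group held 2 or 3 libraries, too few to screen for single samples that stand apart.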

How the results depend on the processing

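Among the named genes, in the comparisons where this was checked, no alternative reversed a called direction. The other genes were not checked for this. The counts for IL-2 against rest (78), STAT5 loss (82), the STAT5 vector in deficient cells (72), its interaction with genotype (67), AKT in deficient cells (41) and STAT5 against MYC (57) or AKT (64) stayed within 1.5 times under every setting run, and leaving out 1 library gave 78 to 79, 77 to 82, 67 to 72, 64 to 69, 30 to 45, 45 to 58 and 56 to 63.

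Other counts moved, and the cause was not tested. With DESeq2 MYC in wild type gave 2 (edgeR 0), MYC added to STAT5 25 (11), Th0 2 (0), Th1 8 (3), Th2 15 (8), the mean of 5 cultures 29 (11), Treg cells 5 (11) and iTreg minus Th0 9 (1). Without a filter the STAT5 vector in wild type gave 2 (4), restored against wild type 13 (30), MYC in deficient cells 6 (12), AKT in wild type 1 (2), MYC added 6 and Th0 1. With only the libraries compared, the STAT5 vector in wild type gave 2, MYC added 45, Th2 1 and iTreg minus Th0 2. RLE scaling gave 1 in Th0 and 22 in the mean of 5 cultures, moved the median of all genes by at most 0.08, and changed the split in Th2 to 6 higher and 2 lower (7 and 1). Without the doubted libraries the STAT5 vector in wild type gave 7, MYC in wild type 1 and MYC added 22.

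Leaving out 1 library gave 1 to 5 for the STAT5 vector in wild type, 16 to 37 for restored against wild type, 6 to 16 for MYC in deficient cells, 1 to 2 for AKT in wild type, 0 to 6 for MYC added, 0 to 27 for AKT added, 0 to 4 for Th1, 1 to 27 for Th2, 0 to 1 for Th17, 9 to 25 for iTreg, 6 to 44 for the mean of 5 cultures, 4 to 11 for Treg cells, 24 to 34 for Stat5a-/- Stat5b+/-, 31 to 37 for Stat5a+/- Stat5b-/- and 0 to 1 for iTreg minus Th0. A lone remaining library is assumed to vary like the other groups of its model.

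The labels do not say whether a replicate number marks a shared animal or day. Deviations of same-numbered libraries correlated above 0.1 in 0 of 3 pairs in set 1 and 14 of 15 in set 2. They did so in 23 of 28 in set 3, 41 of 45 in set 4 and 55 of 66 in set 5. In set 6 it was 1 of 1 (r = 0.61) and in set 7 2 of 3. Same-numbered libraries of sets 2 to 5 thus mostly varied together (median r 0.31 to 0.44), which the main fit does not model. The 1 pair of set 6 is too few to show a pairing. With the replicate number as a block the counts were 78 for IL-2, 82 for STAT5 loss, 73 for the STAT5 vector, 67 for its interaction, 33 for restored against wild type, 13 for MYC, 44 for AKT, 35 for iTreg, 47 and 46 for the single-allele genotypes, 1 for MYC in wild type, 1 for Th0, 17 for the mean of 5 cultures and 19 for Treg cells. Genes at a few CPM, such as Cox6b2 and Cox7a1, are limited by depth.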

Other observations

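The 5 helper cultures differed in their defining genes, measured outside the chain. Tbx21, the Th1 factor, was at 250 to 289 CPM in deficient and 65.8 to 70.4 CPM in wild-type Th1 cells, and at most 41.4 CPM in any other culture, the second Th1 libraries with a Th2 cell type label included among the Th1 values. Gata3, the Th2 factor, was at 240 to 247 CPM in deficient and 217 to 357 CPM in wild-type Th2 cells, and at most 141 CPM elsewhere. Il17a, the Th17 cytokine, was at 1010 to 1100 CPM in deficient and 41.1 to 105 CPM in wild-type Th17 cells, and at most 38.4 CPM elsewhere. These values are CPM without TMM scaling, and they were not tested.

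In deficient cells, the summed level of the 84 genes kept in all 7 sets was 15891 to 17158 CPM with STAT5 and MYC vectors together and 9434 to 13518 CPM with STAT5 and AKT. With MYC it was 9506 to 10626 CPM in set 2 and 8191 to 8703 CPM in set 5. With AKT it was 8019 to 8809 CPM in set 3 and 8849 to 9074 CPM in set 5, and with CD25 6866 to 7265 CPM.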
